A study of Mus musculus with 24 samples.

Results

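The genes described here are 10 genes of the neuromuscular junction and of the muscle response to denervation: Chrna1, Chrnb1, Chrnd, Chrne, Musk, Myog, Runx1, Ncam1, Hdac4 and Gadd45a. They were chosen by name, and each was found by its Ensembl identifier among the 55416 genes counted. All 10 passed the filter on low counts, which kept 16408 genes. Musk, the receptor kinase that builds the postsynaptic membrane, was the 1 gene of the 10 that differed at a false discovery rate (FDR) under 0.05. Its RNA was 2.26-fold higher in males than in females under sham housing and 1.87-fold higher under SMC housing, and it was lower in SMC than in sham mice when the sexes were averaged, at 0.668-fold of the sham level. The call between the sexes under SMC housing and the averaged call were each lost in some fits that left out a single mouse. For SMC against sham, neither sex passed alone. Chrna1, Chrnb1, Chrnd, Myog, Runx1, Ncam1 and Hdac4 did not pass that threshold in any comparison. Whether Gadd45a passed between the sexes, and Chrne for SMC housing on average, depended on the setting and on which mice were included.

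RNA of gastrocnemius muscle was sequenced from 24 wild-type mice, with 4 groups of 6 set by sex and by sham or SMC housing. SMC is a small mouse cage, a box that leaves a mouse little room to move, in which mice were kept for 8 weeks, and sham mice were housed without it. The labels give the strain as C56BL6J, the study's methods give C57BL/6J mice bought at 8 weeks of age, and no group carried a transgene. All mice were fasted for 4 hours and given ketamine and xylazine before the muscle was taken, and the study kept sham and SMC mice in pairs in some experiments and in separate cages in others, which the labels do not give for each mouse. Each library is bulk RNA of muscle tissue, in which fewer cells of a type and less RNA per cell cannot be told apart. The study's main text does not say whether the whole gastrocnemius or a part of it was used. Values below are CPM, read counts scaled to library size and by TMM (trimmed mean of M values), from libraries of 23026627 to 36880413 counts.

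At the neuromuscular junction, a motor nerve ending releases acetylcholine onto receptors packed into the muscle membrane. The adult muscle receptor is built from alpha, beta, delta and epsilon subunits, encoded by Chrna1, Chrnb1, Chrnd and Chrne, and the fetal receptor carries the gamma subunit, Chrng, in place of epsilon. Agrin released by the nerve acts through Lrp4 on the kinase MuSK, which clusters the receptors. When a muscle loses its nerve, HDAC4 and myogenin rise, receptor subunit genes and Musk are switched on along the whole fibre, and Gadd45a, Runx1 and Ncam1 rise with them.

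The promoters of 8 of the 10 genes were matched in RefSeq, on GRCm38.p6. The 250 bases before the first start site are shown for Musk, which carries the differences below, for Chrna1 and Chrne, the receptor genes with the lowest unadjusted p values for SMC housing, and for Gadd45a, the other gene that differed between the sexes under some settings. Capitals mark E boxes (CANNTG, the core read by myogenic factors such as myogenin, which reads the same on both strands) and N boxes (CCGGAA, known from promoters of genes active at the synapse, searched on both strands), and no E box overlapped an N box in these windows. Each sequence runs 5′ to 3′ on the strand of its gene.

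Musk: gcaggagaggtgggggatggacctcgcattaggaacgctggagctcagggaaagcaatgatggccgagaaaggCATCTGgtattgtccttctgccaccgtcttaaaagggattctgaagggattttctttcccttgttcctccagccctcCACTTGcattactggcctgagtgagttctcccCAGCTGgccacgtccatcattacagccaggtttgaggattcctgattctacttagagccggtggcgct
Chrna1: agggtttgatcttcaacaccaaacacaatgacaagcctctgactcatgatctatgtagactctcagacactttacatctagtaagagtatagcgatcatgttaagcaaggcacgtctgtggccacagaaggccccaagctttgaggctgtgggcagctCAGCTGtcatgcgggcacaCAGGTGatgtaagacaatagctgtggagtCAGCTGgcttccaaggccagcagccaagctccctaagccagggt
Chrne: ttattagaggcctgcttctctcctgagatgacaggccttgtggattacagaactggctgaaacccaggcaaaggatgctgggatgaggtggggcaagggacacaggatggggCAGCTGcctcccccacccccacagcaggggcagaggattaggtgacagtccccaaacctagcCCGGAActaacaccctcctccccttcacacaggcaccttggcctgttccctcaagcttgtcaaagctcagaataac
Gadd45a: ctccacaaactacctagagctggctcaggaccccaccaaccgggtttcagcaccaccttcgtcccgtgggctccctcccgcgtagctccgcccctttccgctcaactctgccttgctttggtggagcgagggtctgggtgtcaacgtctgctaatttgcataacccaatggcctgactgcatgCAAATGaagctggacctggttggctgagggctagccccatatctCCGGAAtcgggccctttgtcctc

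The Musk window (chr4:58285712-58285961, plus strand) held 3 E boxes, whose first bases lie 177, 100 and 68 bases before the start. Chrna1 (chr2:73580339-73580588, minus strand) also held 3, at 92, 73 and 44 bases, and 2 of them read CAGCTG. Chrne (chr11:70619195-70619444, minus strand) held 1 E box at 138 bases and 1 N box at 76 bases. Gadd45a (chr6:67037408-67037657, minus strand) held 1 E box at 67 bases and 1 N box at 23 bases. Among the genes not shown, Chrnb1 held 3 E boxes and Myog 2, 1 of 2 Runx1 starts held 3 E boxes and the other an N box, and neither motif was found in the Hdac4 window. Of 32851 promoters of this length, 66.2% held at least 1 E box, 12.2% held 3 or more, 13% held CAGCTG and 12% held an N box, so a single match is common, and a match is a description of letters only.

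Libraries of 2 mice stood apart in slow fibre markers. The summed level of the 10 slow fibre markers, such as Myh7 and Tnnt1, was 86.4 CPM in male sham 4 and 72.9 CPM in female sham 7, against 692 to 4459 CPM in the other 22 mice, with the next lowest sums in male SMC 14 (692 CPM) and male SMC 13 (911 CPM). No slow fibre marker was at 0 in any library. The sum ran from 86.4 to 2338 CPM in sham males, from 692 to 3170 CPM in SMC males, from 72.9 to 3123 CPM in sham females and from 1491 to 4459 CPM in SMC females. The defining muscle genes of the tissue check (Acta1, Ckm, Ttn, Mb and Des) summed to 108435 CPM or more in every library. Male sham 4 was the highest of its group for Chrnb1, Musk, Runx1, Hdac4 and Gadd45a and the lowest for Chrna1, Chrnd and Chrne. Female sham 7 was the highest of its group for Chrna1, Chrne, Musk, Hdac4 and Gadd45a and the lowest for Chrnd, Myog and Runx1. Results that rest on male sham 4 and female sham 7 are therefore given with and without them, and also with the log2 slow fibre sum as a covariate, a setting chosen after the data were seen.

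**Figure D1:**
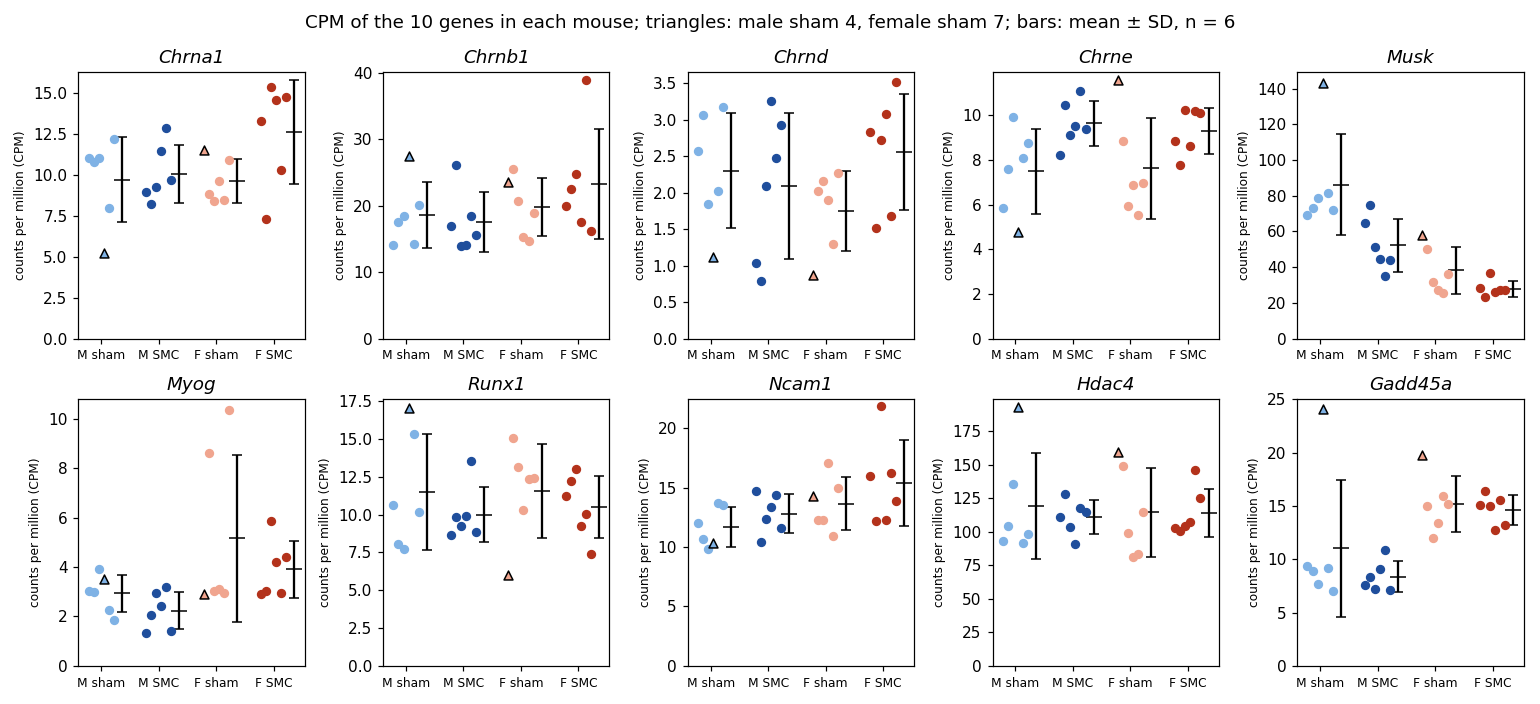
CPM of each of the 10 genes (vertical axis, from 0) in each of the 24 mice, by group (M male, F female), with the mean and SD of 6 mice beside the points and triangles for male sham 4 and female sham 7. Musk shows male sham mice at 69.3 to 143 CPM, all above the female sham mice at 25.4 to 58 CPM, and Gadd45a shows male SMC mice at 7.15 to 10.8 CPM, all below the female SMC mice at 12.7 to 16.4 CPM.

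Musk encodes MuSK, the kinase through which agrin and Lrp4 cluster acetylcholine receptors, and lies at chr4:58285960-58374303 on GRCm38. Male sham mice had a lowest value of 69.3, a median of 76.0 and a highest value of 143 CPM. Male SMC mice had 34.9, 47.8 and 74.8 CPM, in the same order. Female sham mice had 25.4, 33.99 and 58 CPM. Female SMC mice had 23.4, 27.1 and 36.6 CPM. All male sham mice were above all female sham mice, which held for 1.13% of all genes tested in either direction. The other pairs of groups overlapped. Under SMC housing only 1 male, at 34.9 CPM, fell within the female range, and in males only SMC 14 reached the sham range (0.902% of all genes did not overlap between sham and SMC males, and 1.03% between sham and SMC females).

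Between the sexes under sham housing, the Musk log2 fold change was 1.18 (SE 0.21, 95% interval 0.74 to 1.62, edgeR FDR 0.00317), a 2.26-fold difference (95% interval 1.67 to 3.07). It was the 1 call among the 10 genes there, against 1.97% of all genes tested, and at an unadjusted p under 0.05 Myog and Gadd45a passed too (3 of 10, against 15.5%). Leaving out male sham 4, the highest, gave 0.99, and all 24 fits that left out a single mouse kept the call (FDR 6.89e-04 to 0.00939). Without male sham 4 and female sham 7 together it was 1.14 (FDR 8.48e-04), and with the slow fibre covariate it was 1.11 (FDR 3.25e-05).

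Under SMC housing Musk was again higher in males, by 0.90 on the log2 scale (SE 0.21, 95% interval 0.46 to 1.34, FDR 0.0332), a 1.87-fold difference (95% interval 1.38 to 2.53). Here too it was the 1 gene of the 10 called, against 1.03% of all genes, and the 3 genes that passed at an unadjusted p under 0.05 were again Musk, Myog and Gadd45a (against 10.5%). The call was lost in 8 of the 24 fits without 1 mouse, those without male SMC 13, 14 or 15 or female SMC 19, 20, 22, 23 or 24, at FDR 0.0603 to 0.106, and the log2 fold change in the 24 fits stayed between 0.77 and 0.99. Male SMC 14 and 13, the male SMC mice with the most Musk (74.8 and 64.6 CPM), were the 2 with the lowest slow fibre sums of that group, whose part in the difference was not tested beyond the covariate. With the slow fibre covariate the difference was 0.73 (FDR 0.00501).

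The response to SMC housing was measured within each sex and then averaged. In males the log2 fold change was −0.72 (SE 0.21, 95% interval −1.15 to −0.29, unadjusted p 0.00214, edgeR FDR 0.194), and in females it was −0.44 (SE 0.21, 95% interval −0.88 to −0.01, unadjusted p 0.0464, FDR 0.388), so neither sex passed alone. Without male sham 4 and female sham 7 these were −0.53 (95% interval −0.88 to −0.18, FDR 0.232) and −0.28 (95% interval −0.63 to 0.07, FDR 0.423), and with the slow fibre covariate −0.55 (FDR 0.0956) and −0.17 (FDR 0.597). Averaged over the sexes, with 12 mice on each side, it was −0.58 (SE 0.15, 95% interval −0.89 to −0.28, FDR 0.0380), or 0.668-fold of sham (95% interval 0.540 to 0.826). The average uses the same mice as the comparisons within each sex and is not separate evidence. It was the 1 call among the 10 genes, against 2.36% of all genes tested, and at an unadjusted p under 0.05 Chrne passed too (2 of 10, against 17.5%). The response was not shown to differ between males and females (difference −0.28, 95% interval −0.89 to 0.34, unadjusted p 0.360).

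The averaged call sat close to the threshold. Without male sham 4 and female sham 7 the log2 fold change was −0.41 (FDR 0.0610), and with the slow fibre covariate it was −0.36 (SE 0.11, FDR 0.0488). Without genes being filtered the FDR was 0.0512. Leaving out 1 mouse ended the call in 11 of 24 fits, at FDR 0.0509 to 0.0666, those without male sham 4, female sham 8, male SMC 15, 16, 17 or 18, or female SMC 19, 20, 22, 23 or 24. The value itself stayed between −0.65 and −0.48 in all 24 fits, and DESeq2 (FDR 0.00724) and limma voom with sample weights (−0.43, FDR 0.0340) both kept the call.

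**Figure D2:**
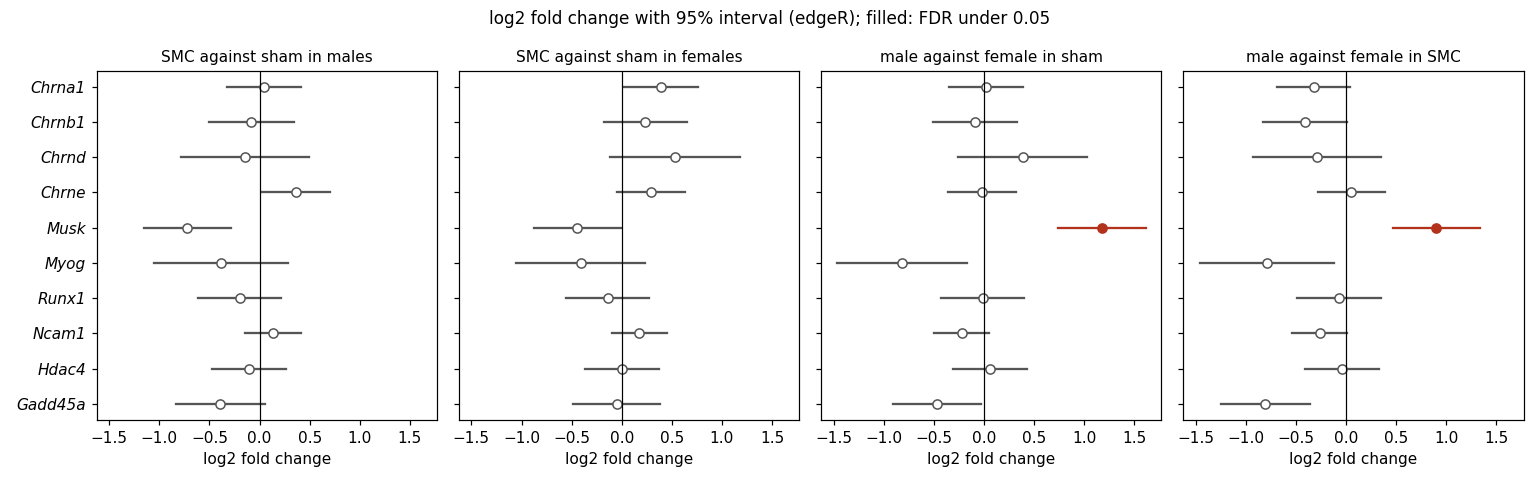
Log2 fold change (horizontal axis) of the 10 genes with 95% intervals from edgeR in 4 comparisons, SMC against sham in males and in females and male against female in sham and in SMC housing, with filled points for FDR under 0.05. The 2 filled points are Musk between the sexes, at 1.18 in sham and 0.90 in SMC mice, while every interval of Chrnb1, Chrnd, Runx1, Ncam1 and Hdac4 crosses 0.

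With all 24 mice, edgeR called none of the 4 receptor subunit genes in any comparison. Over all 10 genes, edgeR called 0 in males (0% of all genes tested) and 0 in females (0.341% of all genes), and DESeq2 and limma voom also called 0 in each sex. At an unadjusted p under 0.05, 2 of the 10 passed in males (Chrne higher and Musk lower, against 11% of all genes) and 2 in females (Chrna1 higher and Musk lower, against 12.5%). For the difference of the response between the sexes 0 of 10 passed, by FDR with edgeR, DESeq2 or limma voom or at an unadjusted p under 0.05 (5.13% of all genes). Taken over the 10 genes, the median of the log2 fold changes was −0.12 in males and 0.09 in females, beside −0.00 and −0.01 for all genes tested.

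Chrne encodes the epsilon subunit, which marks the adult receptor and is made by the nuclei under the synapse (chr11:70614883-70619216). Its lowest, median and highest values were 4.76, 7.84 and 9.91 CPM in sham males and 8.22, 9.45 and 11.1 CPM in SMC males. In females they were 5.53, 6.93 and 11.6 CPM under sham and 7.78, 9.48 and 10.2 CPM under SMC housing. In males, SMC 14 and 17 (10.5 and 11.1 CPM) were above every sham mouse and all SMC mice were above the sham median, while in females all SMC mice lay within the sham range and above its median. Female sham 7 was the highest of all 24 mice. The log2 fold change was 0.36 in males (95% interval 0.03 to 0.70, unadjusted p 0.0352, FDR 0.407), 0.29 in females (95% interval −0.05 to 0.63, unadjusted p 0.0884, FDR 0.491) and 0.33 on average (SE 0.12, 95% interval 0.09 to 0.56, FDR 0.129). Without female sham 7 the average was 0.40 (FDR 0.0381), without male sham 4 as well it was 0.35 (FDR 0.0386), limma voom gave 0.36 (FDR 0.0276), and the slow fibre covariate gave 0.37 (FDR 0.0773). Between males and females the Chrne difference was near 0 (−0.02 in sham, 95% interval −0.36 to 0.32, and 0.05 in SMC, 95% interval −0.28 to 0.39).

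Chrna1 encodes the alpha subunit, which binds acetylcholine (chr2:73563215-73580338). Male sham mice had 5.26, 10.9 and 12.2 CPM as lowest, median and highest value, and male SMC mice 8.19, 9.47 and 12.9 CPM. Female sham mice had 8.43, 9.23 and 11.6 CPM, and female SMC mice 7.31, 13.9 and 15.4 CPM. Of the female SMC mice, 4 were above every female sham mouse, while female SMC 20 was below them all. The log2 fold change for SMC was 0.39 in females (SE 0.18, 95% interval 0.02 to 0.76, unadjusted p 0.0392, edgeR FDR 0.364) and 0.05 in males (95% interval −0.32 to 0.42), and the difference between the sexes was −0.34 (95% interval −0.86 to 0.18, unadjusted p 0.188).

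Chrnd encodes the delta subunit and had the fewest reads of the 10 genes, 18 to 117 counts per library (chr1:87190607-87200070). Its lowest, median and highest values were 1.12, 2.30 and 3.17 CPM in sham males and 0.795, 2.28 and 3.25 CPM in SMC males. In sham females they were 0.877, 1.96 and 2.27 CPM, and in SMC females 1.52, 2.78 and 3.52 CPM. The low values were those of the mice with little slow fibre RNA, male sham 4 (1.12 CPM), female sham 7 (0.877 CPM), male SMC 14 (0.795 CPM) and male SMC 13 (1.04 CPM). For SMC housing the log2 fold change was 0.53 in females (95% interval −0.11 to 1.18) and −0.15 in males (95% interval −0.79 to 0.49), and between the sexes the response differed by −0.68 (95% interval −1.59 to 0.23, unadjusted p 0.137). These intervals are wide, and that of females reached a 2.26-fold rise.

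Chrnb1 encodes the beta subunit (chr11:69784036-69795943). Male sham mice ran from 14.1 to 27.4 CPM with a median of 17.9, and male SMC mice from 13.99 to 26.1 CPM with a median of 16.3. Female sham mice ran from 14.7 to 25.5 CPM with a median of 19.8, and female SMC mice from 16.2 to 38.9 CPM with a median of 21.3. All 4 groups overlapped, with 1 high mouse in each of the male sham (4), male SMC (14) and female SMC (23) groups. The log2 fold change for SMC was −0.08 in males (95% interval −0.50 to 0.34) and 0.24 in females (95% interval −0.18 to 0.66), and males had less than females under SMC housing by −0.41 (95% interval −0.83 to 0.01, FDR 0.493).

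Chrng, the gamma subunit of the fetal receptor that returns after denervation, was at 0 to 11 counts per library, too few to pass the filter. Its highest value was 0.371 CPM in sham males, 0.293 CPM in SMC males, 0.112 CPM in sham females and 0.150 CPM in SMC females, so no rise with SMC housing was detectable at this depth.

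Gadd45a encodes a stress-induced nuclear protein that rises in denervated and fasted muscle (chr6:67035096-67037457). Under SMC housing the males had a lowest value of 7.15, a median of 7.95 and a highest value of 10.8 CPM, and the females 12.7, 15.1 and 16.4 CPM. Under sham housing the males had 7.002, 9.05 and 24.05 CPM, and the females 11.98, 15.1 and 19.7 CPM. Every SMC male was below every SMC female, and among sham mice this held for all males but male sham 4, at 24.05 CPM, the highest of all 24 mice. Of all genes tested, 2.08% did not overlap between the sexes under SMC housing.

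The log2 fold change of Gadd45a between males and females was −0.81 under SMC housing (SE 0.21, 95% interval −1.25 to −0.36, edgeR FDR 0.0702) and −0.47 under sham housing (SE 0.21, 95% interval −0.90 to −0.03, FDR 0.286). Neither passed with all 24 mice. Without male sham 4, whose spread also enters the shared estimate, the values were −0.81 (FDR 1.87e-04) and −0.84 (FDR 3.33e-04), and without female sham 7 as well they were −0.81 (FDR 4.31e-05) and −0.75 (FDR 6.42e-04). DESeq2 called the SMC difference (−0.81, FDR 0.0167) and not the sham difference (−0.46, FDR 0.265), while limma voom called both (−0.86, FDR 1.21e-04, and −0.70, FDR 0.00857), as did the fit with the slow fibre covariate (−0.93, FDR 6.21e-04, and −0.61, FDR 0.0196). Leaving out male SMC 17, the highest SMC male, also brought the SMC difference past the threshold (−0.90, FDR 0.0468), as did a fit of only the 12 SMC mice (−0.81, FDR 7.72e-04). The change with SMC housing was −0.39 in males (95% interval −0.84 to 0.05) and −0.05 in females (95% interval −0.48 to 0.38), and without male sham 4 that of males was −0.02. E230016M11Rik, on the opposite strand, covers 19.1% of the exon length of Gadd45a, and whether strand was used when reads were counted is not given in the sources used here, so its reads may be included.

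Myog encodes myogenin, the factor that switches on receptor genes after denervation (chr1:134289989-134292548). Male sham mice ran from 1.87 to 3.91 CPM with a median of 3.01, and male SMC mice from 1.34 to 3.17 CPM with a median of 2.26. Female sham mice ran from 2.92 to 10.3 CPM with a median of 3.06, and female SMC mice from 2.91 to 5.86 CPM with a median of 3.62. In female sham mice, 2 (8, at 8.60 CPM, and 12, at 10.3 CPM) were far above the other 4, which lay between 2.92 and 3.10 CPM. The difference of males from females was −0.82 in sham mice (SE 0.32, 95% interval −1.47 to −0.17, unadjusted p 0.0158, FDR 0.192) and −0.79 in SMC mice (SE 0.32, 95% interval −1.46 to −0.12, unadjusted p 0.0220, FDR 0.358). SMC housing gave −0.38 in males (95% interval −1.05 to 0.29) and −0.41 in females (95% interval −1.05 to 0.23).

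Hdac4 encodes the deacetylase that carries the denervation signal to Myog (chr1:91928779-92195699). It ran from 91.6 to 193 CPM in sham males (median 101) and from 91.1 to 128 CPM in SMC males (median 113). In sham females it ran from 81.6 to 160 CPM (median 107) and in SMC females from 101 to 146 CPM (median 106). All 4 groups overlapped. All 4 pairwise log2 fold changes were between −0.10 and 0.06, and their 95% intervals stayed between −0.47 and 0.43, or 0.721-fold and 1.34-fold. Gm26720, on the opposite strand, covers 22.4% of the Hdac4 exon length.

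Runx1 encodes a transcription factor that preserves denervated muscle (chr16:92601466-92826149). Its range was 7.75 to 17.1 CPM (median 10.4) in sham males and 8.68 to 13.6 CPM (median 9.53) in SMC males. In sham females it was 5.99 to 15.05 CPM (median 12.4) and in SMC females 7.43 to 13.03 CPM (median 10.6). The log2 fold change for SMC was −0.20 in males (95% interval −0.61 to 0.22) and −0.14 in females (95% interval −0.55 to 0.27), and the sexes differed by −0.01 in sham and −0.07 in SMC mice. The 4 groups overlapped.

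Ncam1 encodes the adhesion molecule found at the junction, along denervated fibres, on satellite cells and on Schwann cells (chr9:49502136-49798925). Its range was 9.81 to 13.7 CPM (median 11.3) in sham males and 10.4 to 14.7 CPM (median 12.8) in SMC males. In sham females it was 10.9 to 17.03 CPM (median 13.3) and in SMC females 12.2 to 21.8 CPM (median 14.9), and the groups overlapped. The log2 fold change for SMC was 0.13 in males (95% interval −0.14 to 0.41) and 0.17 in females (95% interval −0.10 to 0.45), and males had less than females by −0.22 in sham and −0.26 in SMC mice (95% interval −0.54 to 0.01, FDR 0.503). Beside it, the sum of 11 Schwann cell markers had medians of 86.8 CPM (54.8 to 107) in sham males, 105 CPM (89.4 to 139) in SMC males, 102 CPM (71.3 to 190) in sham females and 122 CPM (92.7 to 196) in SMC females. The sum of 9 satellite cell markers had medians of 73.6, 74.3, 90.3 and 75.2 CPM in the same order. Their part in the Ncam1 values was not tested.

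Per kilobase of exon, Musk was the most abundant of the 10 genes, at a mean of 13.6 CPM per kilobase over 24 mice. Chrnb1 followed at 7.83, Hdac4 at 7.26, Gadd45a at 6.98 and Chrne at 5.04 CPM per kilobase. Chrna1 was at 2.39, Myog at 2.38, Ncam1 at 1.54, Runx1 at 0.907 and Chrnd at 0.662 CPM per kilobase. The ranges of all neighbours in this order overlapped over the 24 mice, but within a mouse Chrne was above Chrna1 in 24 of 24 mice and Musk was above Chrnb1 in 19 of 24. In group means per kilobase, Musk was at 22.9 in sham males, 13.9 in SMC males, 10.1 in sham females and 7.42 in SMC females, so that in SMC females it was below Chrnb1 (9.21) and Gadd45a (8.31). Lengths are those of the GRCm38 gene models and not of the build used for counting, so levels between genes are approximate.

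Between mice of the same group, 5 of the 10 genes moved with the slow fibre sum, 1 upwards and 4 downwards. Over 24 mice with group means removed, Pearson r with the log2 slow fibre sum was 0.74 for Chrnd (Spearman rho 0.58, permutation p 1.3e-04, adjusted over the 10 genes 0.00130) and −0.63 for Chrnb1 (rho −0.61, permutation p 2.6e-04, adjusted 0.00130). Without male sham 4 and female sham 7, the 2 mice farthest from the median of that sum, r was still 0.74 for Chrnd (adjusted permutation p 0.0138) and −0.71 for Chrnb1 (adjusted 0.00660). For Musk r was −0.74 (rho −0.52, adjusted permutation p 0.00275) and for Hdac4 −0.73 (rho −0.55, adjusted 0.00275), but without those 2 mice they were −0.47 and −0.39 (adjusted permutation p 0.152 for both). The Gadd45a relation, r −0.71 (adjusted permutation p 0.0153), rested on the same 2 mice and was −0.16 without them. Chrna1 (0.36), Chrne (−0.12), Myog (0.17), Runx1 (0.13) and Ncam1 (0.08) showed no relation that passed. The genes of the delta and beta subunits of 1 receptor thus ran in opposite directions along this measure. These relations were looked for after the values were seen, and the slow fibre sum and the genes share the same libraries.

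**Figure D3:**
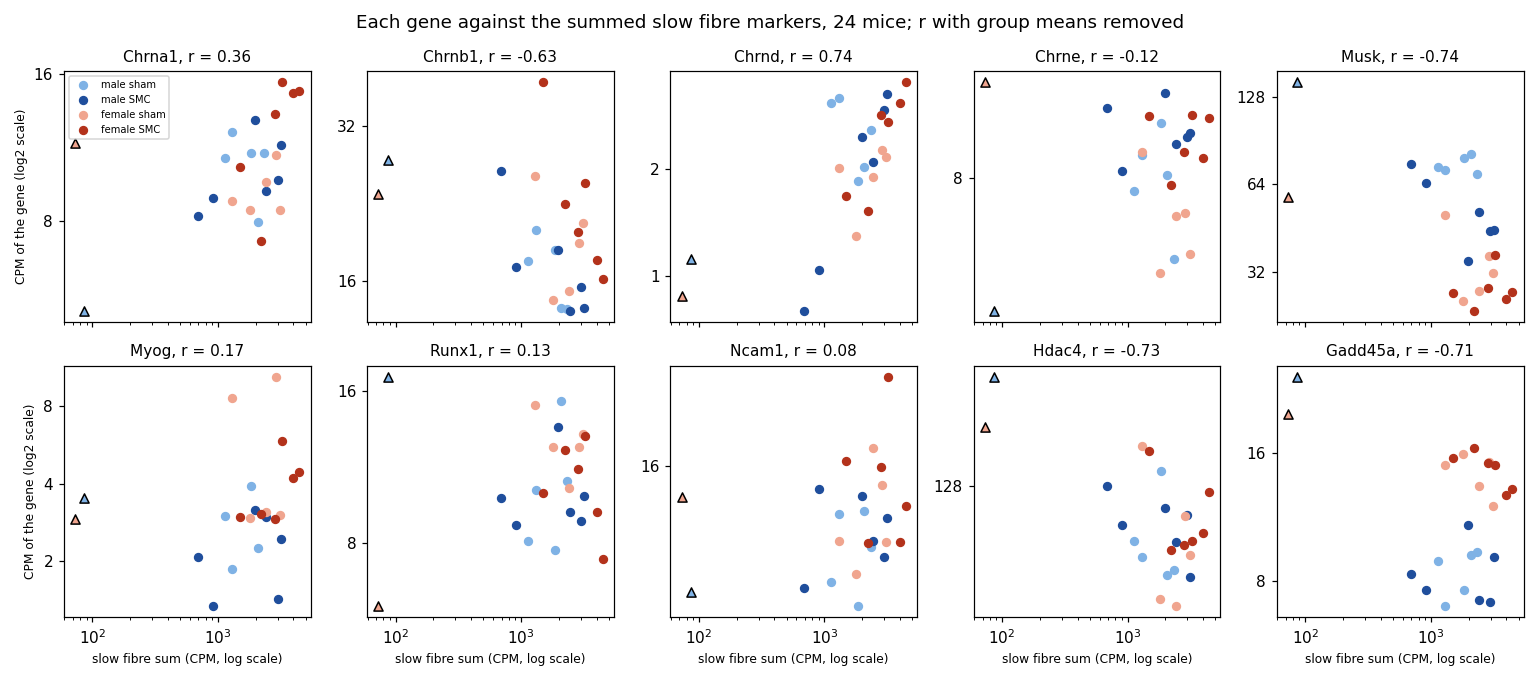
CPM of each of the 10 genes (vertical axis, log2 scale) against the summed CPM of 10 slow fibre markers (horizontal axis, log scale) in 24 mice, coloured by group, with triangles for male sham 4 and female sham 7 and Pearson r of the values less their group means above each panel. Chrnd rises with the slow fibre sum (r 0.74) and Chrnb1 falls (r −0.63), also among the 22 mice drawn as circles.

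Of the 45 pairs among the 10 genes, 4 had a correlation between mice that passed after adjustment, with group means removed, and all 4 were positive. Chrnb1 and Hdac4 had r 0.73 (rho 0.63, permutation p 2e-05, adjusted 9e-04), which was 0.73 without the 2 mice farthest from the median of Chrnb1 (female SMC 23 and male SMC 14) and 0.67 (adjusted permutation p 0.0256) without male sham 4 and female sham 7. Chrna1 and Chrnd had r 0.61 (rho 0.55, permutation p 0.00129, adjusted 0.0193), which was 0.47 without the 2 mice farthest from the median of Chrna1 (female SMC 20 and male sham 4) and 0.69 (adjusted permutation p 0.0162) without male sham 4 and female sham 7. Musk and Hdac4 had r 0.72 (adjusted permutation p 0.0193) and Chrnb1 and Musk 0.59 (adjusted permutation p 0.0330), and these fell to 0.49 and 0.46 (adjusted 0.232 and 0.241) without male sham 4 and female sham 7. Within the 12 males 5 pairs passed and within the 12 females 2. Of the receptor genes, Chrna1, Chrnd and Chrne had unlike values with Musk in the sexes. These were −0.89 in males and 0.45 in females for Chrna1, −0.88 and −0.13 for Chrnd, and −0.52 and 0.89 for Chrne. Chrnb1 with Musk was alike in the sexes, at 0.66 in males and 0.53 in females. These values include male sham 4 and female sham 7, and differences between the sexes were not tested. By Spearman rho, 0 of the 45 pairs passed after adjustment with 24 mice. Myog was not among the pairs that passed, nor were Chrne, Runx1, Ncam1 and Gadd45a.

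**Figure D4:**
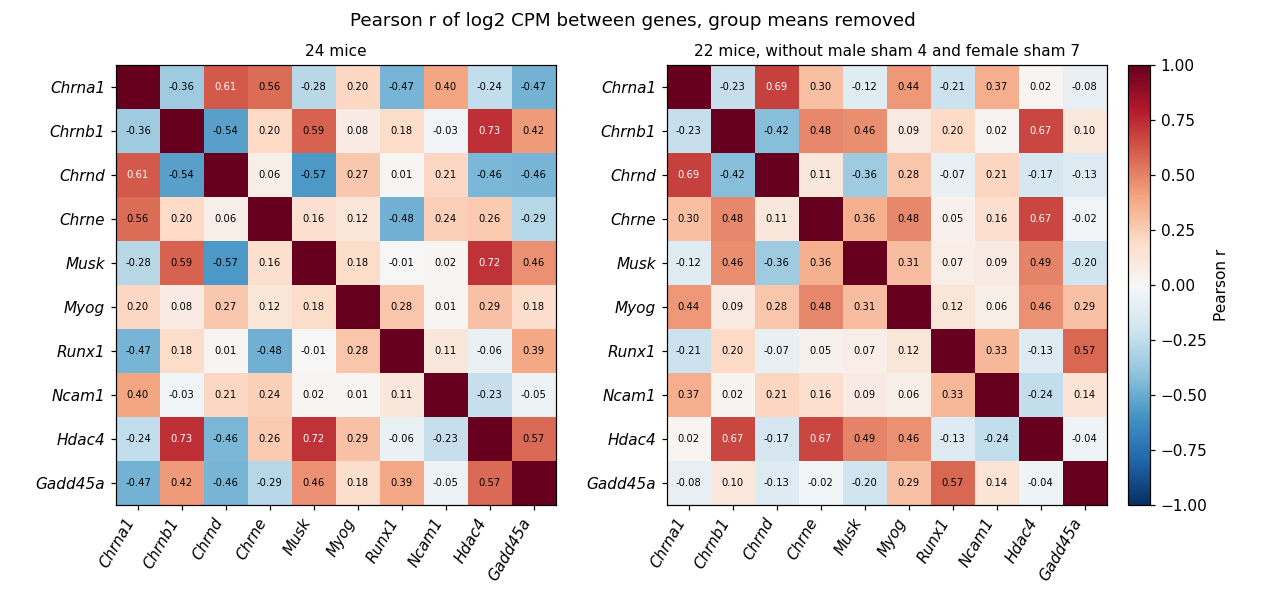
Pearson r between the log2 CPM of the 10 genes with group means removed, over 24 mice (left) and without male sham 4 and female sham 7 (right), from −1 (blue) to 1 (red). Chrnb1 with Hdac4 (0.73 and 0.67) and Chrna1 with Chrnd (0.61 and 0.69) are strong in both panels, while Musk with Hdac4 goes from 0.72 to 0.49.

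Across all genes tested, the genes whose pattern between mice was most like each of the 10 were found by Pearson r with group means removed, as a description over 24 mice that share libraries. For the receptor genes they were Etv5 (0.83) and Flad1 (0.81) for Chrna1, Gnptg (0.86) and Cacng1 (0.86) for Chrnb1, Bmp6 (0.90) and Coq8a (0.89) for Chrnd, and Ufsp1 (0.86) and Ache (0.85) for Chrne. Ache encodes acetylcholinesterase, which breaks down acetylcholine at the same synapse. For Musk they were Rictor (0.86) and Htra1 (0.84), for Hdac4 Rbm20 (0.92) and Pag1 (0.92), for Myog Ccn2 (0.81) and Notch4 (0.80), for Runx1 Zfp608 (0.85) and Ptpra (0.82), and for Ncam1 Nes (0.78) and Tceal7 (0.69). For Gadd45a it was Eif4ebp1 (0.91), which fell to 0.67 without male sham 4 and female sham 7, while the others named here stayed at 0.69 or more.

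The other genes of the endplate were read from a list of 34, of which 32 were tested. In all 6 comparisons edgeR called 0. DESeq2 called Lama5 on average, Lamb2 between the sham sexes and Col13a1 between the SMC sexes, and limma voom called Lama5 on average and in males and Dtna between the SMC sexes. At an unadjusted p under 0.05, 4 were higher and 0 lower with SMC in males (against 5.41% and 5.59% of all genes), 1 higher and 1 lower in females (5.02% and 7.47%), and 3 higher and 1 lower on average (7.9% and 9.65%). The list's median log2 fold change was 0.08 in males and 0.03 in females against −0.00 and −0.01 over all genes. Ache gave 0.43 in males (unadjusted p 0.0436, FDR 0.436) and 0.22 in females (FDR 0.713). Lama5, a laminin chain of the basal lamina, had the smallest p on average, at 0.27 (SE 0.07, edgeR FDR 0.0563, DESeq2 FDR 0.0213, limma voom FDR 0.0166) and 0.35 in males (FDR 0.201). Abl1 was at 0.19 in females (FDR 0.322) and Abl2 at 0.18 in males (FDR 0.331), both kinases that act with MuSK. The partners of MuSK were not called on average with SMC housing, with log2 fold changes of 0.03 for Agrn (95% interval −0.17 to 0.23), 0.11 for Lrp4 (−0.15 to 0.37), −0.06 for Dok7 (−0.23 to 0.11) and −0.05 for Rapsn (−0.19 to 0.10). In group means per kilobase, sham to SMC, Agrn went from 2.27 to 2.51 CPM in males and from 2.79 to 2.64 CPM in females. Lrp4 went from 2.11 to 2.55 and from 2.57 to 2.48, and Dok7 from 3.36 to 3.49 and from 3.42 to 3.03. Rapsn was lower with SMC in both sexes. Between the sexes Musk stood at 1.18 in sham mice, while Agrn was at −0.30 (FDR 0.283), Lrp4 at −0.29 (FDR 0.446), Dok7 at −0.03 (FDR 0.938) and Rapsn at 0.01 (FDR 0.969). Colq, the collagen tail that anchors acetylcholinesterase, was at 0.10 there (FDR 0.858). The list's smallest p between the sham sexes were those of the laminin chain gene Lamb2 (−0.31, FDR 0.0731, DESeq2 FDR 0.0314) and of Nes, the nestin gene (0.42, FDR 0.0918). Between the SMC sexes they were those of Col13a1, a collagen of the endplate (0.68, FDR 0.0804, DESeq2 FDR 0.0325), and Lamb2 (−0.25, FDR 0.252). Col13a1 and Nes also led the difference in response between males and females (0.74, unadjusted p 0.00979, and −0.39, unadjusted p 0.0442, FDR 0.926 and 0.955).

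Genes known to respond to denervation were read from a second list of 29, of which 28 were tested. This list was chosen with earlier results of these data known, so its counts are a description and not a test of the list. Averaged over the sexes, 5 were called lower with SMC housing and 0 higher, against 1.33% of all genes called lower and 1.03% called higher. Mt2, a metallothionein, changed by −1.90 (SE 0.29, FDR 0.00296), Cdkn1a, a cell cycle inhibitor, by −1.65 (SE 0.27, FDR 0.00363), Trim63, the ubiquitin ligase MuRF1 of muscle protein breakdown, by −1.49 (SE 0.34, FDR 0.0215), Trp53inp1, a target of p53, by −0.61 (SE 0.13, FDR 0.0138), and Ampd3, an AMP deaminase, by −0.42 (SE 0.10, FDR 0.0266). The list gives no direction of the response to denervation for its genes. Like Musk, these 5 were lower in SMC mice. Of the 28 genes, 17 were lower and 11 higher, with a median of −0.03, and at an unadjusted p under 0.05 10 were lower and 2 higher (against 9.65% and 7.9% of all genes). In males 19 were lower, with a median of −0.30, and in females 14, with a median of 0.02. Fbxo32, the ubiquitin ligase atrogin-1, was at −0.85 (FDR 0.0690, and −0.42 without male sham 4 and female sham 7, FDR 0.112).

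Male sham 4 and female sham 7 were the highest of their groups for Trim63 and Fbxo32, with Trim63 at 1901 and 1267 CPM against group medians of 249 and 575 CPM. Without both, all 5 calls held (−1.79 for Mt2, −1.48 for Cdkn1a, −0.83 for Trim63, −0.49 for Trp53inp1 and −0.41 for Ampd3, FDR 0.00507 to 0.0405), and leaving out male sham 4 alone took Trim63 to −0.95. With the slow fibre covariate Trim63 missed the threshold (−0.75, FDR 0.0534). Leaving out male sham 1 ended the Ampd3 call (FDR 0.0514). Within males alone edgeR called 0 of the 28 (11 lower and 0 higher at an unadjusted p under 0.05, against 5.59% and 5.41% of all genes, the 3 called by DESeq2 were Cdkn1a, Mt2 and Eda2r, limma voom called 0). The smallest p in males were those of Cdkn1a (−1.72, FDR 0.0929) and Mt2 (−1.69, FDR 0.128). Within females edgeR called 2, both lower (0.219% of all genes, beside 0.122% higher), Mt2 (−2.10, FDR 0.0228) and Trp53inp1 (−0.88, FDR 0.0426), both of which were lost with limma voom (FDR 0.139 and 0.0860). For the difference in response between the sexes edgeR, DESeq2 and limma voom each called 0 (1 higher and 4 lower at an unadjusted p under 0.05, against 5.13% of all genes in either direction). The lowest p were those of Sln and Ankrd1, at −1.04 and −1.77 in males and 0.98 and 0.61 in females, with differences of −2.01 (unadjusted p 0.00170, FDR 0.926) and −2.38 (unadjusted p 0.00418, FDR 0.926).

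**Figure D5:**
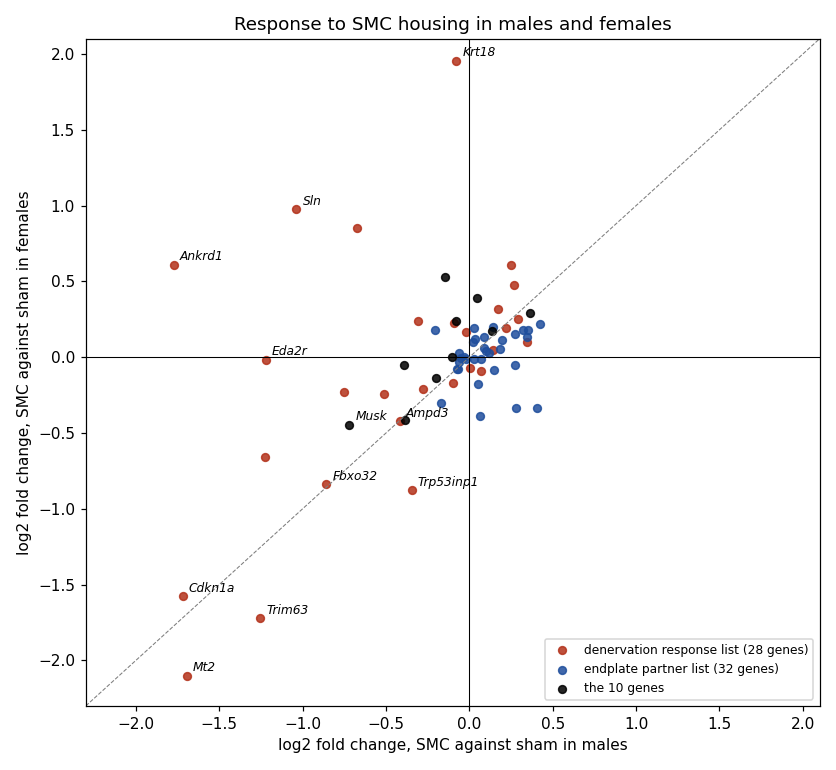
Log2 fold change of SMC against sham in females (vertical axis) against that in males (horizontal axis), which share no mice, for the 10 genes (black), 32 endplate partners (blue) and 28 denervation response genes (red), with a dashed line of equal values. Musk, at −0.72 in males and −0.44 in females, is lower in both sexes, as are Trim63, Cdkn1a and Mt2. Of the 28 denervation response genes, 9 are higher in males and 14 in females. The endplate partners lie between −0.21 and 0.43 in males and between −0.39 and 0.22 in females.

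Between the sexes, 5 genes of the denervation list were called in sham mice, Myod1 (0.60, FDR 0.0487), Eda2r (1.30, FDR 0.0386) and Cd24a (0.37, FDR 0.0419) higher in males and Mt2 (−1.73, FDR 0.0223) and Ampd3 (−0.56, FDR 0.0395) lower (against 0.835% and 1.14% of all genes). Each of these 5 was lost in 3 to 19 of the 24 fits without 1 mouse, and the Eda2r difference was 0.75 without male sham 4 (FDR 0.0755). In SMC mice edgeR called 0 of the 28 (4 lower and 0 higher at an unadjusted p under 0.05, against 10.5% of all genes in either direction), while DESeq2 and limma voom each called 2, Ampd3 (−0.55 by edgeR, FDR 0.0614) and Sln (−1.32 by edgeR, FDR 0.146). Myod1 is the myogenic factor that acts beside myogenin. In sham mice Myod1 was higher in males, while Myog was at −0.82 and missed the threshold (FDR 0.192). The Myog medians were close, at 3.01 CPM in sham males and 3.06 CPM in sham females, with female sham 8 and 12 far above the rest. Female sham 8 and 12 also had the highest satellite cell marker sums of all 24 mice (128 and 117 CPM). The part of satellite cells in the Myog values was not tested.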

How the data were processed

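Total RNA of gastrocnemius muscle was isolated, ribosomal RNA was depleted and directional libraries were prepared, per the labels. The submitters' processing notes name cutadapt 1.16, STAR 2.7.9a, featureCounts 1.6, DESeq2 1.34.0 and the build GRCm39 (mm39), while the gene annotation and whether counting used strand are not given in the sources used here. The deposited values are raw counts per Ensembl gene made by the authors, not normalized, in a column for each mouse. The labels of each sample gave its sex and housing, and with them its group. Which cage or litter a mouse came from is not labelled, so the tests treat the mice of a group as independent. If mice of a group shared a cage or litter, the p values could be too small.

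Genes were filtered with filterByExpr and scaled by TMM, and 1 mean per group was fitted over all 24 libraries with the quasi-likelihood F test of edgeR 4.0.16 (R 4.3.3). Tests were two-sided, with Benjamini-Hochberg FDR under 0.05 over 16408 genes as the threshold. SEs and 95% intervals came from the same fit. Alternatives were DESeq2 1.42.0, limma 3.58.1 voomWithQualityWeights, RLE or no scaling factors, other filters, only the 12 mice compared, each mouse left out in turn, and male sham 4 and female sham 7 left out together. The fits were also run on simulated counts with changes planted in the male SMC group. The simulation held no library that stood apart, such as male sham 4, and its rate of recovery is not given here. Correlations used log2 CPM (prior count 2) less the group mean, with 100000 permutations within groups. Gene models are those of GENCODE M21 on GRCm38, and promoters are those of RefSeq on GRCm38.p6. Symbols were matched for 52083 of 55416 identifiers.

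The 10 genes and the lists were chosen with earlier results of these data known. Named from the 2 lists were genes with FDR under 0.05 in any comparison, those with the 2 smallest p in each, and Chrng, Agrn, Lrp4, Dok7, Rapsn, Ache, Colq, Fbxo32 and Trim63. Some genes that these rules select are not reported here.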

Additional observations from a re-analysis of the deposited data

Results flagged for a closer look

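Of the 40 groups of 6 mice (10 genes in 4 groups), 5 had a highest mouse whose distance to the next was large for the range of the group by Dixon's test at 95%. Chance gives about 2 if the 40 groups are independent and normally distributed. The 10 genes share the same libraries, so 5 is not shown to be more than chance gives. In male sham 4, Musk was at 143 CPM against 69.3 to 81.3 CPM in the other 5, and Gadd45a was at 24.05 CPM against 7.002 to 9.38 CPM. This is the male library with the least slow fibre RNA (86.4 CPM). Musk in female SMC 21 was at 36.6 CPM against 23.4 to 28.1 CPM in the other 5, and that mouse was also the highest of its group for Chrna1, Chrne, Myog, Runx1 and Ncam1. Chrnb1 in male SMC 14 was at 26.1 CPM against 13.99 to 18.4 CPM, and this mouse had the lowest slow fibre sum of its group (692 CPM). Runx1 in male SMC 17 was at 13.6 CPM against 8.68 to 9.93 CPM, and that mouse was also the highest for Chrna1, Chrne, Myog and Gadd45a. What set these mice apart was not tested.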

How the results depend on the processing

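Musk between the sexes under sham housing and the direction of Musk in all comparisons held under every alternative tried, and all calls that changed for the 10 genes are given above with their values. Without scaling factors, the median log2 fold change of all genes moved to −0.14 on average (68 genes higher and 1793 lower), −0.15 in females (13 and 202) and −0.13 in males (0 and 0), and Musk was then at −0.71 on average (FDR 0.00541). With 1 mouse left out, the calls among the 10 genes ran from 0 to 2 on average, 1 to 2 between the sham sexes and 0 to 2 between the SMC sexes. Those of the denervation list ran from 0 to 1 in males, 0 to 4 in females, 5 to 7 on average, 0 to 6 between the sham sexes and 0 to 1 between the SMC sexes, and those of the endplate list from 0 to 1 on average and between the sham sexes. No paired analysis was possible because the replicate numbers run from 1 to 24 over the groups and none is shared. The cause of each change below was not tested.

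Among the 10 genes, the calls on average were 0 without a filter and 2 with limma voom. Between the sham sexes they were 2 with limma voom, without male sham 4 and female sham 7 together, and with the slow fibre covariate. Between the SMC sexes they were 2 with DESeq2, with limma voom, without the same 2 mice, with only the 12 mice compared, and with the slow fibre covariate. The pairs of genes that correlated were 2 without male sham 4 and female sham 7 and 2 in females only, against 5 in males only and 5 with RLE scaling.

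In the denervation list, the calls in males were 3 with DESeq2. In females they were 4 with DESeq2, without scaling factors and without the 2 mice, and 0 with limma voom and with only the 12 mice compared. On average they were 11 without scaling factors. Between the sham sexes they were 3 without scaling factors and with limma voom, 0 with only the 12 mice and 9 with the slow fibre covariate. Between the SMC sexes they were 2 with DESeq2, with limma voom, without the 2 mice and with only the 12 mice, and 1 with the covariate. In the endplate list, the calls in males were 1 with limma voom. On average they were 1 with DESeq2, with at least 10 counts in every sample, with limma voom, without the 2 mice and with the covariate, and 2 without scaling factors. Between the sham sexes they were 1 with DESeq2 and 2 with the covariate, and between the SMC sexes 1 with DESeq2, with limma voom and with only the 12 mice, and 2 with the covariate.

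The fold changes below turned in sign, none of them past the threshold. For SMC in males, Chrna1 was −0.099 without scaling factors, −0.077 with limma voom and −0.086 without the 2 mice. Chrnb1 was 0.047 without the 2 mice and 0.057 with the covariate. Hdac4 was 0.040 with limma voom, 0.076 without the 2 mice and 0.058 with the covariate. For SMC in females, Hdac4 was 0.00431 with DESeq2, 0.00451 with RLE scaling, 0.012 without a filter, 0.12 with limma voom and without the 2 mice, and 0.21 with the covariate, and Gadd45a was 0.049 with limma voom, 0.042 without the 2 mice and 0.18 with the covariate. Between the sham sexes, Chrne was 0.00397 without scaling factors, 0.17 with limma voom and 0.24 without the 2 mice, Runx1 was 0.00863 without a filter, and Hdac4 was −0.00221 without the 2 mice and −0.00363 with the covariate. With 1 mouse left out, the ranges that crossed 0 for SMC in males were −0.086 to 0.12 for Chrna1, −0.23 to 0.047 for Chrnb1, −0.32 to 0.025 for Chrnd and −0.17 to 0.076 for Hdac4. For SMC in females they were −0.084 to 0.12 for Hdac4 and −0.11 to 0.042 for Gadd45a. Between the sham sexes they were −0.053 to 0.15 for Chrna1, −0.12 to 0.14 for Chrne, −0.15 to 0.077 for Runx1 and −0.12 to 0.18 for Hdac4, and between the SMC sexes −4.26e-04 to 0.088 for Chrne and −0.087 to 0.035 for Hdac4. Depth was lowest for Chrnd, with as few as 18 counts in a library.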
